A study of Mus musculus with 10 samples.

Results

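The genes of glycolysis, of glycogen turnover and of the phosphocreatine shuttle were followed in mouse fast muscle on Affymetrix Mouse Gene 1.0 ST arrays. The list held 42 genes, chosen by name and grouped by step of the pathway and by muscle or ubiquitous isoform, of which 39 were measured among 21559 features tested. Of these 39, 38 were read by a probe set of their own and 1, Gapdh, by a probe set shared with near-identical loci. The signals of Gpi1, Pfkfb1 and Eno1 were not analysed here. The arrays formed 2 comparisons, both in muscles of mice labelled C56BL6N and 8 weeks old. In gastrocnemius, 3 arrays came from conditional knockout (KO) mice, which carry a floxed gene and HSA-CRE, and 3 from control mice. The Cre is driven by the human skeletal actin promoter, so the deletion is made in muscle fibers and the other cells of the muscle keep the gene. In tibialis anterior (TA), 2 arrays came from muscles electroporated with 10 µg of a vector for an shRNA against linc-MYH and 2 from muscles given the control vector, in both cases as GFP-expressing fibers dissected 2 weeks after electroporation. The deleted gene and the knocked-down linc-MYH were not analysed here, so the targeted RNA did not check the labels. By the methods, the control shRNA was put into the opposite leg of mice given the shRNA against linc-MYH, so a knockdown and a control array can come from 1 mouse. Neither they nor the labels say which arrays share a mouse or whether arrays of a group are separate animals. P-values then measure the spread between these samples, which may be technical.

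Fast-twitch fibers rely on the breakdown of glycogen and glucose to lactate and on creatine phosphate to renew ATP during short contractions, whereas slow fibers burn more fuel in their mitochondria. Many steps are carried out by a muscle form of the enzyme that is rich in fast fibers, such as Pfkm (phosphofructokinase), Pgam2 (phosphoglycerate mutase) or Ldha (lactate dehydrogenase), next to a form found in most tissues, such as Pfkl, Pgam1 or Ldhb. linc-MYH is a long non-coding RNA of fast fiber nuclei, and both perturbations were made to ask how the fast fiber program is set.

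Values are log2 signals, so a difference of 1 is a 2-fold change, and levels are compared for 1 gene between groups of 1 muscle. The median signal of all probe sets was 5.09 to 5.14 in the TA arrays and 6.60 to 6.67 in the gastrocnemius arrays. As a check of the tissue, 12 fast fiber genes averaged 12.08 to 12.16 in the TA controls and 13.37 to 13.42 in the gastrocnemius controls. The test was limma on the arrays of 1 muscle, with adjustment over all features and a threshold of 0.05. In bulk RNA, fewer cells or fibers of a type and less RNA in each cannot be told apart.

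In the gastrocnemius of KO mice, the muscle isoforms of the pathway were mostly below the controls by small amounts, with the clearest differences at Pfkm and in the breakdown of glycogen. Pfkm, the muscle phosphofructokinase, fell to 77.7% of control, and Phka1, the muscle regulatory subunit of phosphorylase kinase, fell to 70.5%. Ldhb, the lactate dehydrogenase subunit typical of heart and slow fibers, rose to 135% of control. These 3 were the members past the threshold: 1 of 39 was called higher, where 0.835% of all features were, and 2 of 39 were called lower, where 0.696% were. At an unadjusted limma p under 0.05, 15 members lay lower (6.4% of all features) and 3 lay higher (8.61%). In 18 of the 39 members every KO array lay below every control array, and in 4 every one lay above. Over all features these shares were 9.6% and 11.4%. Over the 10780 brighter features, which held 38 of the 39 members, they were 15.4% and 15.8%. The median log2 fold change of the members was -0.11, beside 0.01 over all features. Of the members, 30 of 39 (76.9%) were below 0, where 46.8% of all features were.

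**Figure D1:**
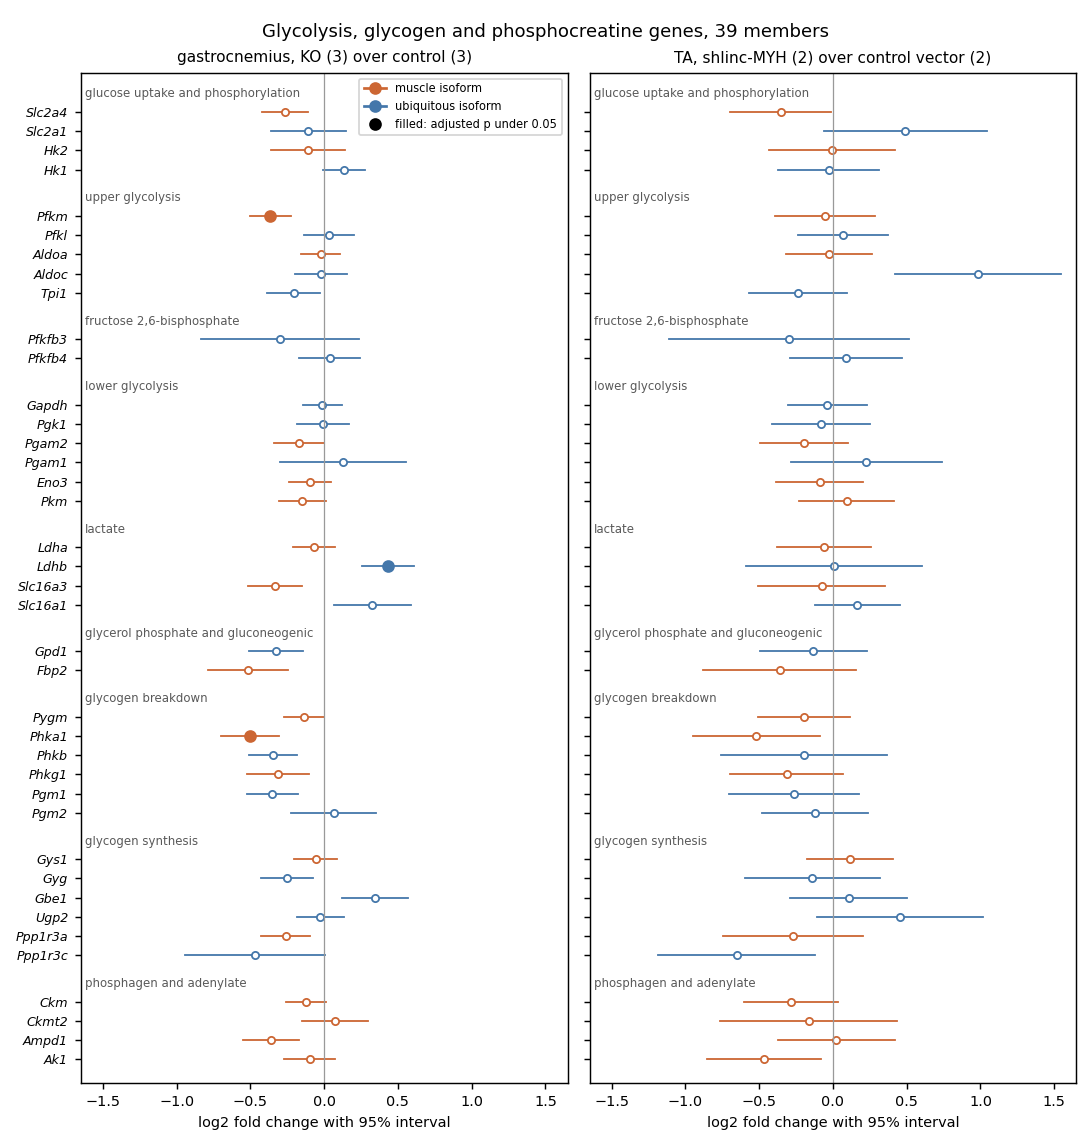
Log2 fold change (points) with its 95% interval (lines) for the 39 measured members, by step of the pathway, in gastrocnemius (KO over control, 3 arrays each) and in TA (shlinc-MYH over control vector, 2 arrays each), with muscle isoforms in orange and ubiquitous ones in blue. Filled points are members with a limma adjusted p under 0.05: Pfkm and Phka1 lower and Ldhb higher in gastrocnemius, none in TA, where the intervals are wider.

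The split by isoform was uneven in gastrocnemius. Of the 19 measured muscle isoforms, 18 had a log2 fold change below 0, 13 had groups that did not overlap on the lower side and none lay apart on the higher side. Of the 20 genes classed as ubiquitous, 12 were below 0, 5 lay apart lower and 4 lay apart higher. This class also held genes with no muscle counterpart among the pairs read below. The 5 were all of that kind, namely Tpi1, Gpd1, Phkb, Pgm1 and Gyg. The 4 were Hk1, Ldhb, Slc16a1 and Gbe1. The muscle class included Aldoa, Pkm and Ldha. The median log2 fold change was -0.15 for the muscle isoforms and -0.02 for the ubiquitous ones. In KO replicates 1, 2 and 3, 19, 16 and 17 of the 19 muscle isoforms were below the control mean.

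Pfkm, whose enzyme makes the committed step of glycolysis, read 13.20, 13.21 and 13.17 in the control arrays and 12.79, 12.88 and 12.82 in the KO arrays. The 3 KO arrays lay together, well below the tightly grouped controls. Its log2 fold change was -0.36 (SE 0.06, adjusted p = 0.0374). Phka1 read 12.61, 12.59 and 12.76 in the controls and 12.02, 12.24 and 12.19 in the KO arrays. Again no KO array reached a control. Its log2 fold change was -0.50 (SE 0.08, adjusted p = 0.0383). Ldhb read 10.22, 10.25 and 10.06 in the controls and 10.60, 10.68 and 10.55 in the KO arrays. Every KO array was above every control, and the log2 fold change was 0.43 (SE 0.08, adjusted p = 0.0438). A second probe set of Ldhb gave 0.47. With 1 array left out, each of the 3 genes kept its direction and passed only where the array left out was KO replicate 3. Without any other array the adjusted p was 0.0852 to 0.158 for Pfkm, 0.0932 to 0.130 for Phka1 and 0.0958 to 0.155 for Ldhb. None of the 3 passed with all 10 arrays in 1 fit (adjusted p = 0.0749, 0.0838 and 0.277) or in the methods' t-test after Benjamini-Hochberg (0.106, 0.174 and 0.167), and Ldhb did not with arrays centred on their medians (0.0574).

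The 5 members next in order of the moderated statistic did not pass the threshold, and all of them lay lower in every KO array than in any control. An order by that statistic favours members whose groups lie apart. Phkb, the regulatory beta subunit of phosphorylase kinase, read 12.06, 12.14 and 12.10 in the controls and 11.65, 11.82 and 11.78 in the KO arrays, with a log2 fold change of -0.35 (adjusted p = 0.0625). Pgm1, which turns glucose 1-phosphate from glycogen into glucose 6-phosphate, read 12.45, 12.43 and 12.49 against 11.99, 12.10 and 12.22. That is a log2 fold change of -0.35 (adjusted p = 0.0751). The KO arrays of Pgm1 were spread more widely than its controls, with replicate 3 nearest to them. Ampd1, the muscle AMP deaminase that removes AMP in working fibers, read 12.71, 12.74 and 12.82 in the controls and 12.26, 12.41 and 12.51 in the KO arrays. For Ampd1 the log2 fold change was -0.36 (adjusted p = 0.0878). Fbp2, the muscle fructose bisphosphatase, had the lowest log2 fold change of the 39 members. It read 9.27, 9.06 and 8.93 in the controls and 8.57, 8.75 and 8.39 in the KO arrays, a log2 fold change of -0.52 (SE 0.12, adjusted p = 0.0885). Slc16a3 encodes MCT4, the carrier through which glycolytic fibers export lactate. It read 11.09, 11.04 and 11.04 in the controls and 10.59, 10.74 and 10.84 in the KO arrays, with a log2 fold change of -0.34 (adjusted p = 0.0952). Without KO replicate 3, Pgm1 (adjusted p = 0.0365) and Slc16a3 (0.0490) passed and the count of members lower was 6 in place of 2. That array lay 0.04 above the control mean at the median of all features, where the other KO arrays lay 0.01 below.

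**Figure D2:**
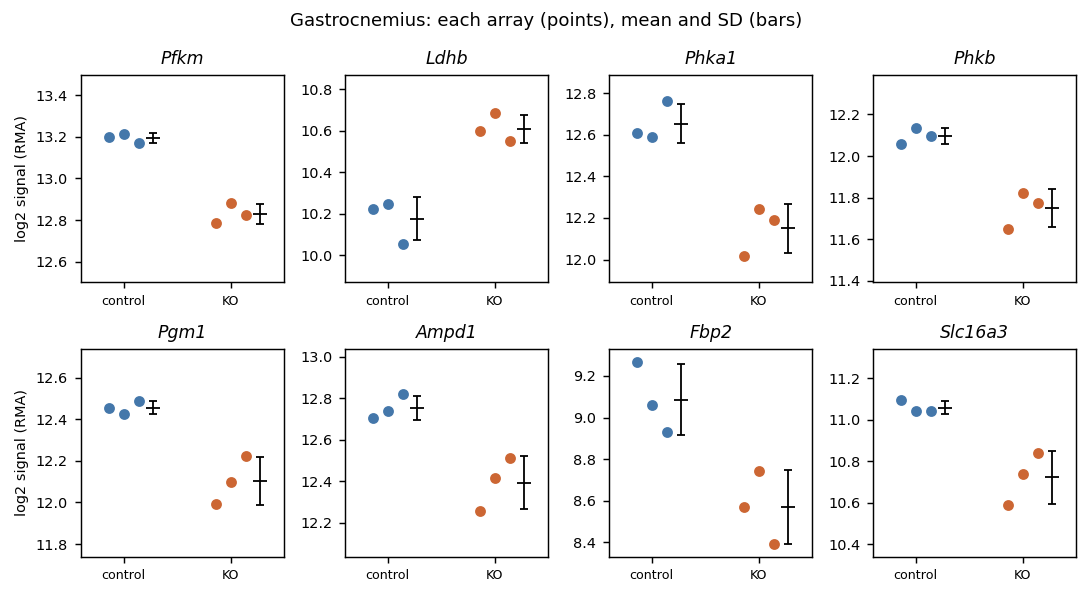
Log2 signal in each gastrocnemius array (points; blue control, orange KO) with mean and SD (bars, n = 3) for the 8 members with the largest moderated statistics. In all 8 panels the groups do not overlap, with Ldhb higher and the other 7 lower in the KO arrays, and each panel has its own vertical scale.

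The promoters of the 3 genes past the threshold are shown as the regulatory sequence next to the genes that changed. Each is the 250 bases before an annotated RefSeq start on GRCm38.p6, printed from 5′ to 3′ on the strand of the gene. Capitals mark an exact match to a sequence of the study's MEF3 site list in Pfkm and to the E-box CAGCTG in Phka1.
Phka1 (chrX:102644247-102644496, minus strand): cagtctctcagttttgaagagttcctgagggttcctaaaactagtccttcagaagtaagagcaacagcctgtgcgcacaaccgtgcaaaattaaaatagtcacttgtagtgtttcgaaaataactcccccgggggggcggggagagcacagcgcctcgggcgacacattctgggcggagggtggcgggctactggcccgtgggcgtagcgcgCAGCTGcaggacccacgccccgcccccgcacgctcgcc
Pfkm (chr15:98108221-98108470, plus strand): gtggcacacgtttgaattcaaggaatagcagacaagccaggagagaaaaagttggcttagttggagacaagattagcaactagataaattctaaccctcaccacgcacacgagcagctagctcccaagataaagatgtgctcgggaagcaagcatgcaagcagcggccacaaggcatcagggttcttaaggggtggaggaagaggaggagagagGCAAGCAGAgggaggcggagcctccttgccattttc
Ldhb (chr6:142507958-142508207, minus strand): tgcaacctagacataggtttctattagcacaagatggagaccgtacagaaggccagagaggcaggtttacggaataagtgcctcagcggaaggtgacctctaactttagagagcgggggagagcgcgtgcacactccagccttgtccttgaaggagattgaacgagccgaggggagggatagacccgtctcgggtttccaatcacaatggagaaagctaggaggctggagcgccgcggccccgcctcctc
The Pfkm window is that of the second of its 4 annotated starts and was chosen for its match. It lies within the gene, downstream of the first start. The windows of starts 1 and 4 held no MEF3 match, and that of start 3 overlaps the one shown and holds the same match. The last 55 bases of the Phka1 window lie within the gene as RefSeq bounds it.

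MEF3 is a DNA element of muscle gene promoters, and the sites searched were the 14 distinct 9-base sequences of the study's own site list, namely GAAACCGGA, GAAACCTGA, GAAACTTGA, GAAATCTAA, GAAATCTGA, GAAATTGAA, GAAATTTAA, GCAAGCAGA, GCAAGGCGA, GGAACTTGA, GTAACCTGA, GTAACTGGA, GTAATTTAA and GTAATTTGA, on both strands. The E-box CAGCTG, a core bound by myogenic bHLH factors, reads the same on both strands. Promoters were found for 39 of the 42 listed genes, all but Ampd1, Gpd1 and Slc2a4. These 39 genes include Gpi1, Pfkfb1 and Eno1 and so are not the same set as the measured members. A MEF3 sequence was held by 2 of these 39 genes (5.13%), Pfkm and Ugp2, and by 3.73% of all 27025 genes with a promoter. CAGCTG was held by 14 of the 39 (35.9%), against 14.7% of all genes. A gene counted if the window of any of its starts held the sequence, so genes with more starts had more windows. By start, CAGCTG was held by 15 of 58 member windows, against 13% of all 32851 windows. Of the genes with CAGCTG, 11 were among the 18 muscle isoforms with a promoter and 3 among the 21 ubiquitous ones. No match of the MEF3 sites overlapped one of CAGCTG in these windows. By its methods, the study predicted sites with a weight matrix, a score threshold and a requirement of conservation. None of these was applied here, so a match is to a listed sequence alone. Such matches describe letters in a window and were not tested for binding.

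By step, the breakdown of glycogen stood lowest in KO gastrocnemius among the steps with more than 2 measured genes. Its 6 genes had a median log2 fold change of -0.33, and in 5 of them the groups did not overlap. The 3 measured subunits of phosphorylase kinase, which switches on glycogen phosphorylase, lay at -0.50 (Phka1), -0.35 (Phkb) and -0.31 (Phkg1, the catalytic subunit, adjusted p = 0.154). Pygm, the muscle glycogen phosphorylase itself, lay at -0.14 (adjusted p = 0.330). The sixth gene, the ubiquitous Pgm2, lay at 0.07 with overlapping groups. Of the 6, only Phka1 passed the threshold.

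The 6 genes of glycogen synthesis went both ways and none passed. Ppp1r3a and Ppp1r3c, which target protein phosphatase 1 to glycogen, lay at -0.26 (adjusted p = 0.137) and -0.47 (0.340). Ppp1r3c read 11.19 and 11.38 in KO replicates 1 and 2 but 12.00 in replicate 3, within its control range of 11.84 to 12.22. Gyg, the glycogenin primer, lay at -0.25 (adjusted p = 0.171), and Gbe1, the branching enzyme, at 0.34 (0.149) with every KO array above the controls. Gys1, the muscle glycogen synthase, was at -0.06 and Ugp2, which makes UDP-glucose, at -0.03, both with overlapping groups.

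Along the trunk of glycolysis from aldolase to lactate, the 8 genes Aldoa, Tpi1, Gapdh, Pgk1, Pgam2, Eno3, Pkm and Ldha lay within 0.21 of 0 on the log2 scale in gastrocnemius. All 8 were below 0, 4 had groups that did not overlap and none passed the threshold. The values ran from -0.01 for Pgk1, the phosphoglycerate kinase, to -0.21 for Tpi1, the triose phosphate isomerase (adjusted p = 0.266). Pgam2 lay at -0.17 (adjusted p = 0.322), Pkm, the pyruvate kinase, at -0.15 (0.378) and Eno3, the muscle enolase, at -0.10 (0.544). Their control signals stood at percentile 98.9 of all features or above, where an array signal can be compressed. At the entry of the pathway, Slc2a4, the insulin-responsive glucose carrier GLUT4, read 11.88, 11.85 and 11.76 in the controls and 11.56, 11.63 and 11.50 in the KO arrays. Its log2 fold change was -0.27 (adjusted p = 0.115). Hk2, the muscle hexokinase, was at -0.11 and Slc2a1, the carrier GLUT1, at -0.11, with overlapping groups. The regulators Pfkfb3 and Pfkfb4, which set the level of the phosphofructokinase activator fructose 2,6-bisphosphate, lay at -0.30 and 0.04, with adjusted p of 0.636 and 0.923.

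Around lactate, the muscle forms lay below 0 and the oxidative forms above 0 in gastrocnemius. Ldha was at -0.07 with overlapping groups (limma adjusted p = 0.707), so it was not told from 0. Ldhb was at 0.43. Slc16a3 was at -0.34 and Slc16a1, which encodes MCT1, the carrier of lactate uptake in oxidative fibers, at 0.33 (adjusted p = 0.227). Slc16a1 read 9.54, 9.29 and 9.47 in the controls and 9.84, 9.90 and 9.54 in the KO arrays, where replicate 3 was level with the highest control. Gpd1, which makes glycerol 3-phosphate from a glycolytic intermediate, lay at -0.33 (adjusted p = 0.0998) with groups that did not overlap. In the phosphocreatine and adenylate step, Ckm, the muscle creatine kinase, was at -0.12 (adjusted p = 0.386), its mitochondrial partner Ckmt2 at 0.07 (0.829) and the adenylate kinase Ak1 at -0.10 (0.636). Ampd1 thus lay farthest from 0 in that step.

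In TA given the shRNA against linc-MYH, no member passed the threshold. limma called 0 of 39 higher, where 0.0139% of all features were called, and 0 lower, where 0% were. At an unadjusted p under 0.05, 1 member lay higher (4.15% of all features) and 4 lower (4.25%), and the methods' t-test gave 0 in either direction at 0.05. The groups did not overlap for 10 members on the lower side and 5 on the higher side, 25.6% and 12.8% of the members. With 2 arrays a group, 22.8% and 16.2% of all features did so. The median log2 fold change was -0.08 for the members and -0.02 for all features. Of the members, 27 of 39 (69.2%) were below 0, where 55.9% of all features were. The muscle isoforms had a median of -0.17 with 16 of 19 (84.2%) below 0, and the ubiquitous isoforms -0.03 with 11 of 20 (55%) below 0.

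The TA control arrays did not lie together for these genes. At the median of the 39 members, control replicate 1 lay 0.10 below and replicate 2 0.10 above their mean, and 18 of the 19 muscle isoforms were brighter in replicate 2. The shlinc-MYH arrays lay 0.12 and 0.04 below the control mean. The median log2 fold change of the members was -0.01 without control replicate 2 and -0.17 without control replicate 1. The values below are those of the 8 members with the largest moderated statistics, and they are given as measured differences that did not pass.

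Aldoc, an aldolase known mainly from brain, had the highest log2 fold change of the members in TA but was dim. Its mean control signal stood at percentile 30.5 of all features, so it was not shown to be above background, and it was removed when dimmer features were left out. It read 4.22 and 4.67 with the control vector and 5.17 and 5.69 with shlinc-MYH, both above both controls. Its log2 fold change was 0.98 (SE 0.23, adjusted p = 0.494), and it passed only when all 10 arrays entered 1 fit (adjusted p = 0.0454). Slc2a1 read 6.47 and 5.84 with the control vector and 6.51 and 6.78 with shlinc-MYH. Its lowest shlinc-MYH array was just above control replicate 1, and the log2 fold change was 0.49 (adjusted p = 0.639). Its muscle counterpart Slc2a4 read 8.55 and 8.85 against 8.35 and 8.34, a log2 fold change of -0.35 (adjusted p = 0.583).

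Among the glycogen genes of TA, Ppp1r3c read 10.46 and 10.76 with the control vector and 10.24 and 9.67 with shlinc-MYH. The shlinc-MYH arrays were far from each other, and the log2 fold change was -0.65 (SE 0.22, adjusted p = 0.551). Phka1 read 10.48 and 10.82 against 10.30 and 9.96, a log2 fold change of -0.52 (adjusted p = 0.551). Phkg1 read 8.16 and 8.54 against 8.01 and 8.07, a log2 fold change of -0.31 (adjusted p = 0.653). All 6 genes of glycogen breakdown were below 0 in TA, with a median of -0.23, and 3 of them (Pygm, Phka1 and Phkg1) had groups that did not overlap. Of glycogen synthesis, Ugp2 lay at 0.46 (adjusted p = 0.655) and Gys1 at 0.11 (0.843). Ugp2 read 10.41 and 11.06 with the control vector and 11.06 and 11.32 with shlinc-MYH, so that its groups barely parted.

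Of the phosphocreatine and adenylate genes in TA, Ak1 read 8.99 and 9.02 with the control vector and 8.73 and 8.34 with shlinc-MYH, a log2 fold change of -0.47 (adjusted p = 0.551). Ckm read 11.86 and 11.83 against 11.68 and 11.44, a log2 fold change of -0.28 (adjusted p = 0.639). For both genes the controls agreed closely and the shlinc-MYH arrays did not. Pfkm and Ldhb, which passed in gastrocnemius, were at -0.05 and 0.01 in TA with overlapping groups. The trunk from Aldoa to Ldha ran from -0.24 (Tpi1) to 0.09 (Pkm).

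**Figure D3:**
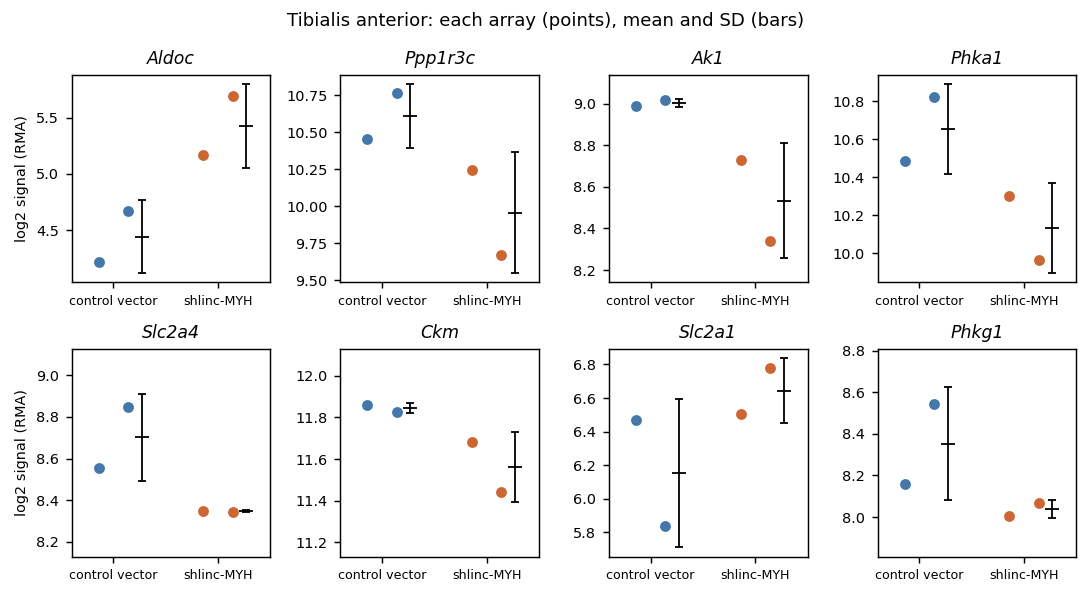
Log2 signal in each TA array (points; blue control vector, orange shlinc-MYH) with mean and SD (bars, n = 2) for the 8 members with the largest moderated statistics, none of which passed the threshold. Aldoc and Slc2a1 lie higher and the other 6 lower with shlinc-MYH, and the control arrays lie close together for Ckm (SD 0.024) and Ak1 (SD 0.020) but not for the other 6 (SD 0.209 to 0.444).

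The change in one muscle was set against that in the other by a contrast over all 10 arrays, in which muscle, electroporation and genotype cannot be told apart. limma called 0 of 39 members at an adjusted p under 0.05, where 0.135% of all features were called. The lowest adjusted p was 0.156, for Aldoc, at 0.98 in TA and -0.02 in gastrocnemius. No member was shown to change differently in the 2 comparisons. Pfkm, at -0.05 in TA and -0.36 in gastrocnemius, differed by -0.31 with a 95% interval from -0.60 to -0.02 (adjusted p = 0.385). Ldhb, at 0.01 and 0.43, differed by 0.43 with an interval from -0.12 to 0.97 (adjusted p = 0.521). The comparisons share no array. In both, 24 of the 39 members were below 0, where 27.8% of all features were, and 7 had groups that did not overlap on the lower side, where 2.5% did. These shares are over all features, dim ones included, whereas most members are bright. No share over brighter features was taken for both muscles.

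For 7 steps a muscle isoform could be read against its ubiquitous counterpart on the same array, as the difference of both log2 signals. Its level depends on both probe sets and carries no meaning, so that its difference between groups alone is given. In gastrocnemius the ratio lay lower in every KO array than in any control for 4 of the 7 pairs and higher for none. The ratio of Slc16a3 to Slc16a1 differed from the controls by -0.66 on the log2 scale, a fold of 0.632. The ratio of Ldha to Ldhb differed by -0.50, that of Pfkm to Pfkl by -0.40 and that of Hk2 to Hk1 by -0.25. The last rests on the probe set chosen for Hk1, which had a log2 fold change of 0.14. The brighter own probe set of Hk1 gave 0.02 with overlapping groups. For each of the 4 the exact two-sided permutation p was 0.1, the smallest that 3 arrays against 3 allow, and 0.175 after adjustment over the 7 pairs. Aldoa to Aldoc differed by 0.00 and Slc2a4 to Slc2a1 by -0.16, both with overlapping groups. Pgam2 to Pgam1 differed by -0.30, with KO arrays on both sides of the controls.

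In TA the ratio was lower in both shlinc-MYH arrays than in both controls for 4 of the 7 pairs, namely Aldoa to the dim Aldoc (-1.01), Slc2a4 to Slc2a1 (-0.85), Pgam2 to Pgam1 (-0.42) and Slc16a3 to Slc16a1 (-0.24). The exact two-sided permutation p was 1 in 3, the smallest that 2 arrays against 2 allow, and 0.583 after adjustment. For Pgam2 to Pgam1 control replicate 1 was level with the shlinc-MYH arrays, at -0.37 against -0.38 and -0.47 from the control mean. Slc16a3 to Slc16a1 was the pair that lay apart on the lower side in both muscles.

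**Figure D4:**
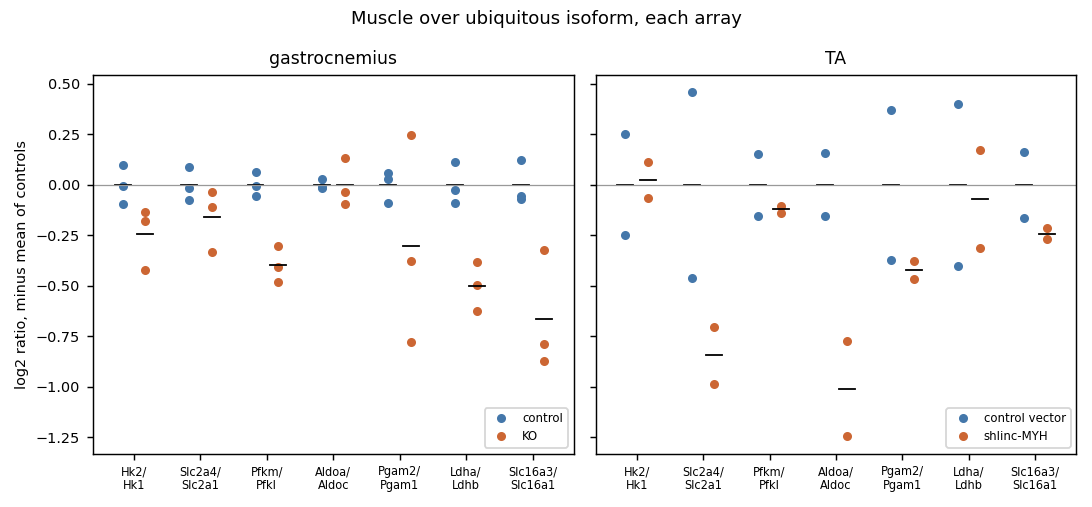
Log2 ratio of the muscle to the ubiquitous isoform in each array, minus the mean of the controls, for 7 pairs in gastrocnemius (3 arrays a group) and TA (2 a group), with group means as bars. In gastrocnemius the KO arrays lie below all controls for Hk2/Hk1, Pfkm/Pfkl, Ldha/Ldhb and Slc16a3/Slc16a1 and for no pair above them, and in TA the 2 controls are far apart for Slc2a4/Slc2a1 (-0.46 and 0.46).

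Of 61 other genes of the same pathways, 56 were measured. In gastrocnemius 3 of them were called higher (0.835% of all features) and 4 lower (0.696%) by limma, with a median log2 fold change of 0.00. Gpd2, the mitochondrial glycerol 3-phosphate dehydrogenase that works with Gpd1 in the glycerol phosphate shuttle, fell to 33.6% of control. It read 11.02, 11.24 and 10.93 in the controls and 9.49, 9.61 and 9.37 in the KO arrays, a log2 fold change of -1.57 (SE 0.10, adjusted p = 0.00215). Ak4, a mitochondrial adenylate kinase, rose to 302% of control. It read 9.57, 9.32 and 8.78 in the controls and 10.89, 10.95 and 10.61 in the KO arrays, a log2 fold change of 1.59 (SE 0.19, adjusted p = 0.0146). Both differences were larger than that of any of the 39 members.

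Among the adenylate genes, Ampd3, the AMP deaminase of red blood cells and other tissues, rose by 1.04 on the log2 scale (adjusted p = 0.0283), while the muscle form Ampd1 lay at -0.36. Ampd3 read 9.48, 9.37 and 9.22 in the controls and 10.67, 10.50 and 10.03 in the KO arrays. Gatm, the first enzyme of creatine synthesis, rose by 0.85 (adjusted p = 0.0239), from 9.86, 9.49 and 9.75 to 10.41, 10.48 and 10.77. Of the genes that fell, Bpgm, which makes 2,3-bisphosphoglycerate, read 8.74, 8.79 and 8.67 in the controls and 7.83, 8.13 and 8.13 in the KO arrays. The difference was -0.70 on the log2 scale (adjusted p = 0.0185). Tigar, a fructose 2,6-bisphosphatase, fell by 0.54 (adjusted p = 0.0438), from 9.32, 9.58 and 9.58 to 8.94, 8.85 and 9.07. The seventh, Epm2a, which encodes the glycogen phosphatase laforin, fell by 0.40 (adjusted p = 0.0441), from 9.50, 9.60 and 9.43 to 9.11, 9.17 and 9.06. All 7 had groups that did not overlap, which a choice by adjusted p favours.

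**Figure D5:**
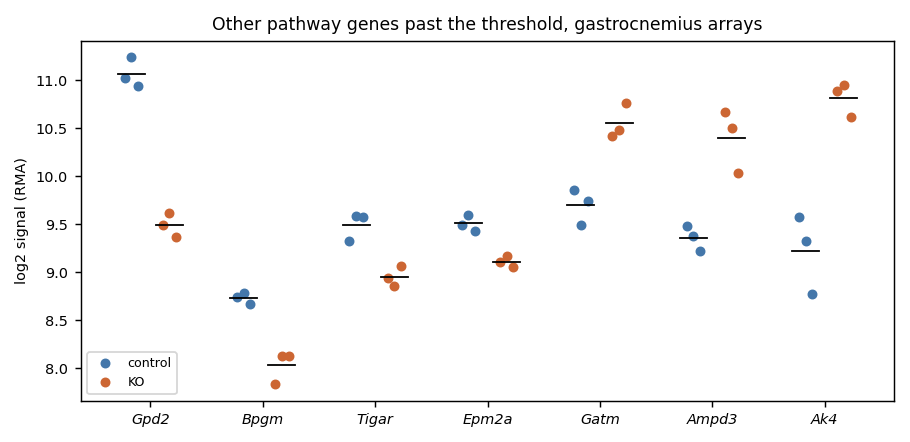
Log2 signal in each gastrocnemius array (points; blue control, orange KO, 3 arrays each) with group means (bars) for the 7 other pathway genes with a limma adjusted p under 0.05. Gpd2, Bpgm, Tigar and Epm2a lie lower and Gatm, Ampd3 and Ak4 higher in every KO array, and heights are not to be compared between genes.

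In TA limma called 0 of the 56 other pathway genes in either direction, where 0.0139% of all features were called higher and 0% lower. At an unadjusted limma p under 0.05, 4 lay higher (4.15% of all features) and 8 lower (4.25%). Their median was -0.07. The 6 with the largest moderated statistics all had groups that did not overlap, which a choice by that statistic favours. Stbd1, which binds glycogen and membranes, read 6.49 and 6.83 with the control vector and 7.53 and 7.88 with shlinc-MYH, a log2 fold change of 1.05 (adjusted p = 0.330). Gatm lay at 0.67 (adjusted p = 0.387), with 6.36 and 6.16 against 6.91 and 6.95. Of the regulators of pyruvate dehydrogenase, the kinases Pdk2, Pdk3, Pdk4 and Pdk1 lay at -0.54 (adjusted p = 0.466), 0.41 (0.540), -0.45 (0.575) and 0.04 (0.970), and the phosphatase Pdp1 lay at -0.45 (0.512). Pdk2 read 9.49 and 9.50 against 9.00 and 8.91, and both controls were nearly equal. Pdk3, whose control signals were below the median of their arrays, read 4.79 and 4.98 against 5.36 and 5.25. Pdp1 read 8.64 and 8.60 against 8.24 and 8.10. Adssl1, the muscle adenylosuccinate synthase, read 9.32 and 9.62 against 8.88 and 9.08, a log2 fold change of -0.49 (adjusted p = 0.543). Of the genes called in gastrocnemius, Gpd2 lay at -0.46 and Ak4 at 0.02 in TA. The test of the difference between the comparisons gave an adjusted p of 0.156 for Gpd2 and 0.0660 for Ak4.

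Markers of fibers and other cells were read on the same arrays. In gastrocnemius 9 of 12 slow fiber genes were called higher, all 12 lay apart on the higher side, and their mean signal was 9.96 to 10.31 in the control arrays and 11.06 to 11.38 in the KO arrays. Of 12 fast fiber genes 0 were called by limma (5 lower at an unadjusted p under 0.05). Of these 12, 9 lay apart on the lower side and 1, Myh1 at 0.13, on the higher side, with Myh2 at 0.05. Their mean signal was 13.37 to 13.42 in the controls and 13.22 to 13.30 in the KO arrays. Over all features 9.6% lay apart lower and 11.4% higher, and over the brighter features 15.4% and 15.8%. limma called 0.835% of all features higher, and at an unadjusted p under 0.05 it had 8.61% higher and 6.4% lower. The fast fiber genes had a median log2 fold change of -0.13, next to -0.15 for the muscle isoforms of the pathway. Of 8 macrophage genes 1 was called higher and 5 lay apart higher, with mean signals of 7.26 to 7.48 and 7.72 to 8.29. The 6 fibroblast genes had a median of 0.40 with 2 lying apart higher and 0 called by limma (4 higher at an unadjusted p under 0.05), and their mean signal was 10.30 to 10.71 in the controls and 10.77 to 10.92 in the KO arrays. The endothelial (0.07), adipocyte (0.30), Schwann and nerve (0.08) and red blood cell (0.01) lists had 0 genes called by limma, with 1 gene of the 4 lists at an unadjusted p under 0.05. The part of fiber and cell composition in the members' values was not tested.

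In TA 7 of 8 endothelial genes lay apart on the lower side, with a median of -0.70 and a mean signal of 7.06 to 7.11 with the control vector and 6.09 to 6.78 with shlinc-MYH. Of 12 slow fiber genes 7 lay apart higher, with a median of 0.86 and a mean signal of 6.62 to 7.48 against 7.91 to 8.01. The slow myosin Myh7 (-0.33), Myh7b (-0.09) and Tpm3 (-0.59) were the 3 of the 12 below 0, with overlapping groups. The fast fiber genes had a median of -0.08, equal to that of the 39 members, and 3 of 12 (25%) lay apart lower. Over all TA features 22.8% lay apart lower and 16.2% higher, so the fast fiber count was near that share. The median was 0.13 for macrophage, 0.12 for fibroblast, -0.16 for adipocyte, -0.24 for Schwann and nerve and -0.02 for red blood cell genes. limma called none of these genes in TA, and 7 slow fiber, 6 endothelial and 1 adipocyte gene had an unadjusted p under 0.05. Of all features, 4.15% lay higher and 4.25% lower at that limma p. The part of these markers in the members' values was not tested.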

How the data were processed

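RNA of mouse muscle was hybridised to GeneChip Mouse Gene 1.0 ST arrays, 10 in all. The values deposited by the authors are RMA signals on the log2 scale, 1 for each probe set (the submitters' processing notes list RMA and Partek, with no version). Both muscles sit on different signal scales, so each was analysed alone. Labels and methods give different ages for the TA mice, RNA amounts and labelling kits, and whether both muscles were normalised together is not given in the sources used here. RMA compresses very bright and very dim signals and removes any shift common to all genes. Arrays have no read depth, and their number limits the precision.

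The table held 35556 probe sets with 0 missing values, of which 21789 carried 1 gene symbol, 1621 several and 12146 none in the platform annotation. A gene was read by its probe set of highest mean over the 10 arrays, and each probe set with several symbols was a feature of its own, which gave 21559 features. Of the 42 members, 33 had 1 own probe set, 5 had more (Hk1, Pgk1, Pgam1, Pkm and Ldhb), 1 only shared ones and 3 none. For Hk1 the brightest own probe set carries only an accession that probe sets labelled Rpl17 share, so the other was used, a choice made after the annotation was seen. The 25 shared probe sets of Gapdh gave log2 fold changes of -0.06 to -0.04 in TA and -0.04 to -0.01 in gastrocnemius.

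Linear models (lmFit, then eBayes, of limma 3.58.1 under R 4.3.3) were fitted to each muscle alone. P-values were adjusted by Benjamini-Hochberg over all features, with a threshold of 0.05. The contrast between muscles used 1 fit of 4 groups, which assumes 1 spread in both, whereas the median SE was 0.13 in TA and 0.08 in gastrocnemius. Ratios of isoforms were tested by exact permutation over arrays with scipy 1.17.1. The fits were tested on simulated data. Promoters came from RefSeq on GRCm38.p6. The members and lists were chosen with earlier results of these data known. The lists were other pathway genes and fast fiber, slow fiber, endothelial, macrophage, adipocyte, Schwann and nerve, red blood cell and fibroblast markers. Members past the threshold, filled to 8 per muscle by the moderated statistic, were given with every array, and up to 6 other pathway genes in the same way by fold change and then statistic. Epm2a was named after its values were seen. The gene deleted in the KO mice is not reported here. The alternatives were quantile normalisation, centring, leaving out dim or shared features, the mean of all probe sets, the 4 groups fitted jointly, eBayes with a trend on intensity and a robust prior, a block on replicate numbers, the t-test named in the methods and leaving out each array.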

Additional observations from a re-analysis of the deposited data

How the results depend on the processing

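In gastrocnemius the count of members lower was 2 and rose to 4 with arrays centred on their medians, to 4 without dimmer features and to 8 with an intensity trend and a robust prior. It was 16 in the methods' t-test at 0.05 and 0 after Benjamini-Hochberg, and 0 with all 10 arrays in 1 fit. The count of members higher was 1, and it was 0 with centred arrays, with all 10 arrays in 1 fit and in the methods' t-test after Benjamini-Hochberg, and 3 in that test at 0.05. With 1 array left out, the counts ran from 0 to 6 lower and from 0 to 1 higher. The median of the members in gastrocnemius was -0.16 with centred arrays in place of -0.11. In TA the control shRNA was given in the opposite leg, but no source says that a shared replicate number marks 1 mouse, and deviations of same-numbered gastrocnemius arrays correlated at 0.233, -0.199 and 0.0501 (0.199 in TA). With the replicate block 0 members were called in either direction in gastrocnemius (adjusted p = 0.116 for Pfkm, 0.0864 for Phka1 and 0.0883 for Ldhb). In TA 1 member, Aldoc, was called higher with all 10 arrays in 1 fit and 0 under the other alternatives. The difference between the comparisons gave 0 members under every alternative run. Of the 16 values of members described in full, none changed sign under any alternative run on them. With 1 TA array left out, however, Slc2a1 lay anywhere from 0.18 to 0.80 on the log2 scale, with ranges of -0.51 to -0.12 for Phkg1, -0.94 to -0.36 for Ppp1r3c, -0.67 to -0.27 for Ak1, -0.40 to -0.16 for Ckm, -0.69 to -0.35 for Phka1, -0.50 to -0.21 for Slc2a4 and 0.72 to 1.24 for Aldoc. An alternative chosen after the data were seen, the brightest own probe set of Hk1, turned its log2 fold change in TA from -0.03 to 0.17. In gastrocnemius it turned that of Hk1 from 0.14, with groups apart, to 0.02, with groups that overlapped. Without Hk1, 3 members in place of 4 lay apart higher in gastrocnemius. With 2 or 3 arrays a group and signals near the top of the range for many members, small changes could not be told from the spread.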
